A study of Mus musculus with 8 samples.

Results

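Neuropeptide genes encode secretory precursors that are cut into short signalling peptides, packed in dense-core granules and released beside a fast transmitter. In the mature dorsal root ganglion several of them mark classes of pain and itch neurons, and many of the same genes are used by spinal interneurons, motor neurons and autonomic neurons. The 10 genes described here were chosen by name: Gal, Sst, Calca, Calcb, Tac1, Nppb, Npy, Adcyap1, Vip and Nts. All 10 were found by their Ensembl identifiers among the 38355 genes of the count files.

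RNA sequencing compared 4 libraries of Prdm12-/- embryos (KO) with 4 libraries of wild-type embryos (WT), all of the C57Bl6 strain at E11.5. The series' design text speaks of triplicates, while 4 libraries are listed for each genotype, and all 8 were used here. The tissue was thoracic spinal cord with its dorsal root ganglia, which house the cell bodies of sensory neurons. Prdm12 encodes a transcription factor, and the comparison asks which genes depend on it in somatosensory neurons. The labels give neither the deleted part of Prdm12, nor whether a library holds 1 embryo or a pool. The p-values therefore measure the spread between these libraries, which may be technical.

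Library totals lay between 23088908 and 67782435 counts. WT replicate 1 was the deepest, at 2.55 times the median of the other 7. Prdm12 itself had 0.961 to 1.55 CPM in KO and 22.1 to 39.5 CPM in WT (CPM, the count scaled by the TMM-adjusted library total). Pou4f1, Isl1 and Prph, markers of sensory neurons, were present in every library, with Pou4f1 at 58.2 to 68.0 CPM in KO and 80.1 to 99.8 CPM in WT. Markers of other tissue were present too, among them the cord progenitor gene Sox2 (119 to 145 CPM in KO, 139 to 174 CPM in WT) and the catecholamine enzyme gene Dbh of sympathetic neurons (16.8 to 26.1 CPM in KO, 9.23 to 23.0 CPM in WT). A neuropeptide level in these libraries therefore cannot be assigned to ganglion, cord or sympathetic neurons. In such bulk tissue, fewer cells of a type and less RNA per cell cannot be told apart.

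Apart from Sst, expression of these genes was low or moderate at this stage, and no member passed a test for a difference between KO and WT. Of the 10 genes, 7 had enough counts for the test (Gal, Sst, Calca, Calcb, Tac1, Npy and Adcyap1) and 3 did not (Nppb, Vip and Nts). None of the 7 passed edgeR's quasi-likelihood test (adjusted p under 0.05 over 16068 genes), 0 of 7 had an unadjusted p under 0.05, and the CPM ranges of KO and WT overlapped for all 7. Over all tested genes 0.299% passed, 6.35% had an unadjusted p under 0.05 and 4.14% had groups that did not overlap. By direction, 0.243% passed as lower and 0.056% as higher in KO, and 2.45% lay without overlap below and 1.69% above WT. DESeq2 called 0 of the 10 and limma-voom 0 of 7, each with 0 at an unadjusted p under 0.05. A missed threshold does not show equal levels, so the interval of each difference is given below.

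Together the 10 genes held 41.5 to 49.5 CPM in KO libraries and 43.8 to 54.7 CPM in WT libraries. Sst and Adcyap1 made up most of this, between 75.9% and 86.7% of the sum in KO and between 78.4% and 90.7% in WT. The other 8 genes shared the small remainder. These are shares of CPM, not scaled by gene length, and the order per length is given below.

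**Figure D1:**
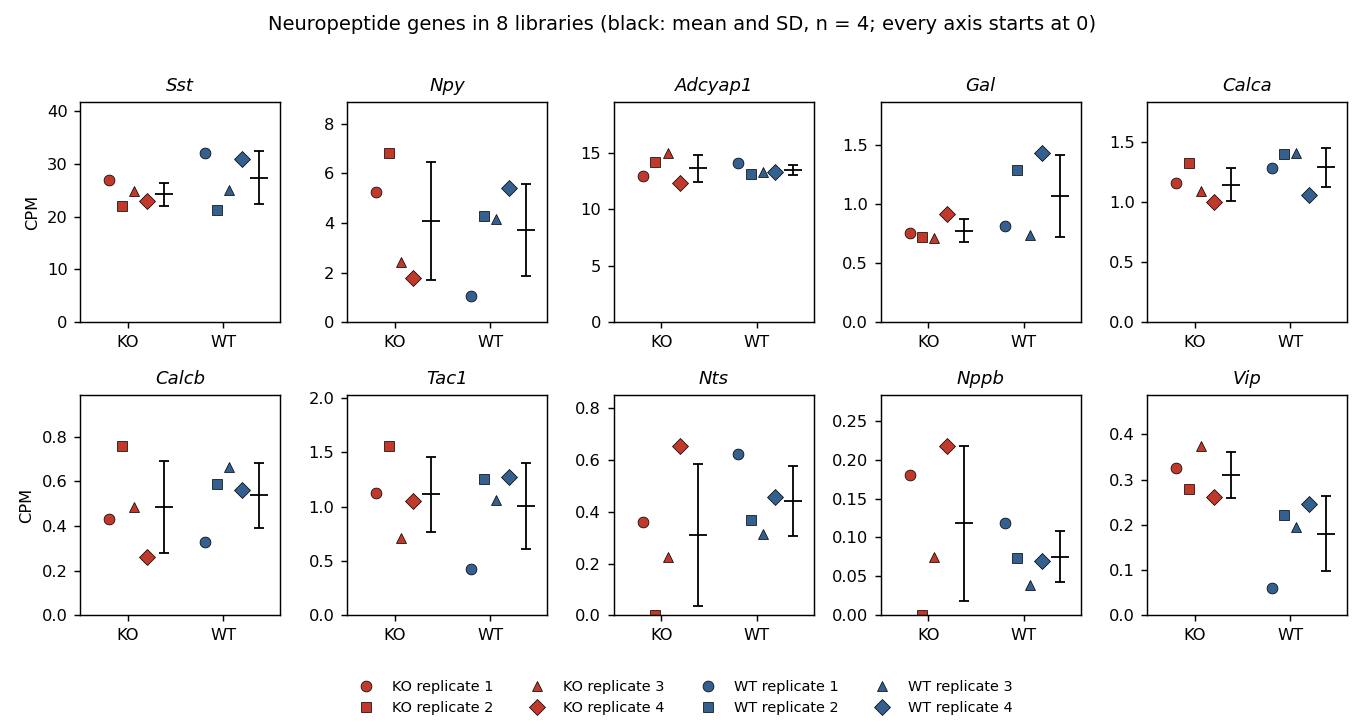
CPM (y axis, each starting at 0) of the 10 neuropeptide genes in the 4 KO and 4 WT libraries, 1 panel a gene, with a marker shape for each replicate number and the mean and SD in black. KO and WT points overlap in every panel except Vip, whose KO points start at 0.262 CPM and whose WT points end at 0.246 CPM; WT replicate 1 is the lowest WT point for Npy, Tac1, Calcb and Vip.

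Levels between genes were compared per length, as CPM per kb of merged exon sequence. Sst stood first at 35.7 ± 5.51 CPM per kb (SD over 8 libraries), above 91.5% of the tested genes. Npy followed at 6.91 ± 3.51 CPM per kb and Adcyap1 at 3.58 ± 0.23 CPM per kb, on either side of the median of the tested genes, 5.72 CPM per kb. Sst did not overlap with Npy in any library. Npy and Adcyap1 did overlap, with Npy the higher in 6 of 8 libraries, so their order is not settled.

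The other 7 genes were lower. Gal had 1.17 ± 0.359 CPM per kb, above 22.9% of tested genes, and Calca had 0.721 ± 0.0945 CPM per kb, above 16.9%. Gal did not overlap with Adcyap1 above it or with Calca below it, but Calca came before Gal (ranks 4 and 5) when the longest transcript was used as the length. Calcb (0.404), Tac1 (0.311) and Nts (0.301 CPM per kb) followed, with overlapping ranges between neighbours. Nppb (0.124 CPM per kb) and Vip (0.0722 CPM per kb) came last and overlapped as well.

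**Figure D2:**
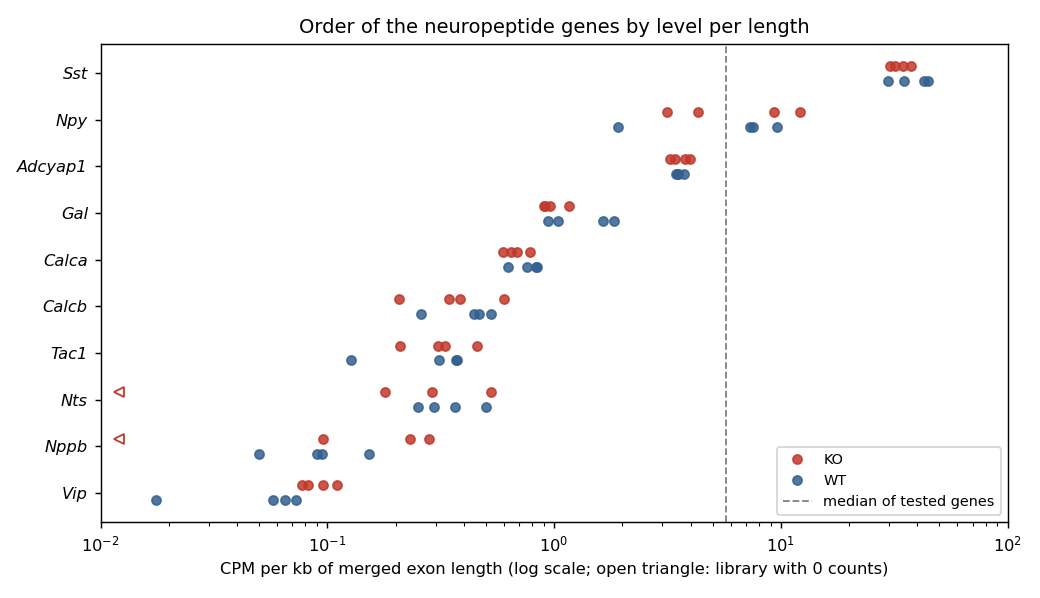
Level of each neuropeptide gene in CPM per kb of merged exon length (x axis, log scale), with 1 point per library, KO above WT in each row, and genes ordered by their mean over 8 libraries. Sst is the only member whose points all lie to the right of the dashed line, the median of tested genes at 5.72 CPM per kb; open triangles mark KO replicate 2, with 0 counts of Nts and of Nppb.

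Sst encodes somatostatin, an inhibitory peptide made by subsets of spinal interneurons and sensory neurons (ENSMUSG00000004366, mm10 chromosome 16, 23889573 to 23890958, minus strand). It had 26.9, 21.9, 24.9 and 23.0 CPM in KO replicates 1 to 4 and 32.1, 21.3, 25.1 and 30.8 CPM in WT replicates 1 to 4. WT replicates 1 and 4 were the highest of the 8, while the other WT libraries lay within or below the KO range. The means were 24.2 ± 2.2 CPM in KO and 27.3 ± 5.04 CPM in WT (SD, n = 4 each). The log2 fold change of KO over WT was −0.18 (SE 0.12, 95% interval −0.46 to 0.09, adjusted p = 0.901), which bounds the ratio of KO to WT between 0.729 and 1.07. The variance within groups was 18.4 times that of counting error.

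Adcyap1 encodes PACAP, a peptide that raises cyclic AMP through the receptor made from Adcyap1r1 and acts on developing neurons (ENSMUSG00000024256, chromosome 17, 93199017 to 93206537, plus strand). It had 12.9, 14.2, 15 and 12.3 CPM in KO replicates 1 to 4 and 14.1, 13.1, 13.3 and 13.3 CPM in WT replicates 1 to 4. All WT values lay inside the KO range. Its coefficient of variation was 9.1% in KO and 3.47% in WT, beside 9.09% in KO and 18.4% in WT for Sst. Its log2 fold change was 0.02 (SE 0.08, 95% interval −0.15 to 0.18, adjusted p = 0.990), which bounds the KO to WT ratio between 0.901 and 1.14, the narrowest range of the 10. Its receptor gene Adcyap1r1 had 69.2 ± 4.42 CPM in KO and 72.0 ± 6.02 CPM in WT (SD, n = 4 each), with an adjusted p of 0.955 and a log2 fold change of −0.06.

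The promoters of Sst, Adcyap1 and Vip are shown because these 3 genes hold at least TGACGT, a part of the cyclic AMP response element. In the measured order they stand at the top, near the top and at the bottom. The element's full letters are TGACGTCA, and TGACGT lies inside them. Both were searched on both strands in the 250 bases before each RefSeq start (build GRCm38.p6). Each sequence runs 5′ to 3′ on the gene's strand and ends at the base before the start, and capitals mark the match.
Sst, chr16:23890845-23891094, minus strand: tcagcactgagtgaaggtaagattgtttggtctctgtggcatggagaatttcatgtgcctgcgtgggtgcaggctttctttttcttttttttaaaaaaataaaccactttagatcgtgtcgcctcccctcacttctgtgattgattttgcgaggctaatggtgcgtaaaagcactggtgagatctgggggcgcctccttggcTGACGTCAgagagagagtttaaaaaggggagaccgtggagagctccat
Adcyap1, chr17:93198767-93199016, plus strand: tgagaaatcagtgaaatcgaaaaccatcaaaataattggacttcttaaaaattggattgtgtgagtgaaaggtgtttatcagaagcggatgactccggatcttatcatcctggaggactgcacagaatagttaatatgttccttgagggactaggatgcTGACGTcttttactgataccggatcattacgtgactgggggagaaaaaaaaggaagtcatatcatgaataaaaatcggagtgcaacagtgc
Vip, chr10:5638968-5639217, plus strand: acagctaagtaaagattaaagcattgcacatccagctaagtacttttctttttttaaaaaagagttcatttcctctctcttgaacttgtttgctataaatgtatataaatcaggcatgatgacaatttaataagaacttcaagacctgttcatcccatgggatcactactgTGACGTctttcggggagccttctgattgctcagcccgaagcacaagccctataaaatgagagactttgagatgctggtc

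Sst was the only one of the 9 members with a promoter in the table that held the full element, which 1.55% of all 32851 windows hold. It begins 48 bases before the Sst start. TGACGT was in 3 of the 9 members, beginning 91 bases before the Adcyap1 start shown and 79 bases before the Vip start. It was in 6.47% of all windows. The shorter run TGACG also occurs, on either strand, in the windows of Calca, Tac1 and Nts, and its share over all windows was not counted. Members are counted here as genes, and a gene with several starts has several windows, so the 9 members have 10. A second Adcyap1 start in the table has the same TGACGT within its window. A match is a run of letters and not evidence of binding. Sst, with the full element, had 35.7 CPM per kb, and Vip, with TGACGT alone, had 0.0722 CPM per kb. A link between these letters and the levels was not tested.

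Npy encodes neuropeptide Y, made by sympathetic neurons and by spinal interneurons, and by sensory neurons after injury (ENSMUSG00000029819, chromosome 6, 49822710 to 49829507, plus strand). Of the 10 genes it had the largest spread within groups relative to counting error. Npy had 5.27, 6.84, 2.43 and 1.79 CPM in KO replicates 1 to 4 and 1.08, 4.28, 4.15 and 5.42 CPM in WT replicates 1 to 4. KO replicates 1 and 2 were high and KO replicates 3 and 4 low, and in WT replicate 1 stood well below the others. The highest library had 6.31 times the lowest, and the variance within groups was 44.1 times that of counting error. The log2 fold change was 0.18 (SE 0.58, 95% interval −1.16 to 1.53, adjusted p = 0.983), an interval wide enough to hold a 2.88-fold higher level in KO. The value turned to −0.16 without WT replicate 1 and to −0.18 without KO replicate 2.

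The genes whose profile over the 8 libraries lay nearest to that of Npy were Neurod2, a basic helix-loop-helix factor of differentiating neurons, and Avil, which encodes the actin-binding protein advillin of sensory neurons. The measure was the root mean square difference of mean-centred log2 CPM, 0.307 for Neurod2 and 0.322 for Avil, against a median of 0.862 over 14277 genes. Avil had 2.45, 3.04, 1.42 and 1.49 CPM in KO replicates 1 to 4 and 0.787, 2.84, 2.43 and 2.36 CPM in WT replicates 1 to 4. Neurod2 had 4.44, 6.36, 1.99 and 2.40 CPM in KO replicates 1 to 4 and 1.17, 5.75, 4.19 and 3.91 CPM in WT replicates 1 to 4. KO replicates 3 and 4 and WT replicate 1 were low for all 3 genes, which the choice by likeness fixes. The nearest profiles to Sst were those of Kcne3 (0.0748) and Mapk12 (0.0753), against a median of 0.224. Those nearest to Adcyap1 were Pot1a (0.0224) and Zfp759 (0.027), against a median of 0.132.

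**Figure D3:**
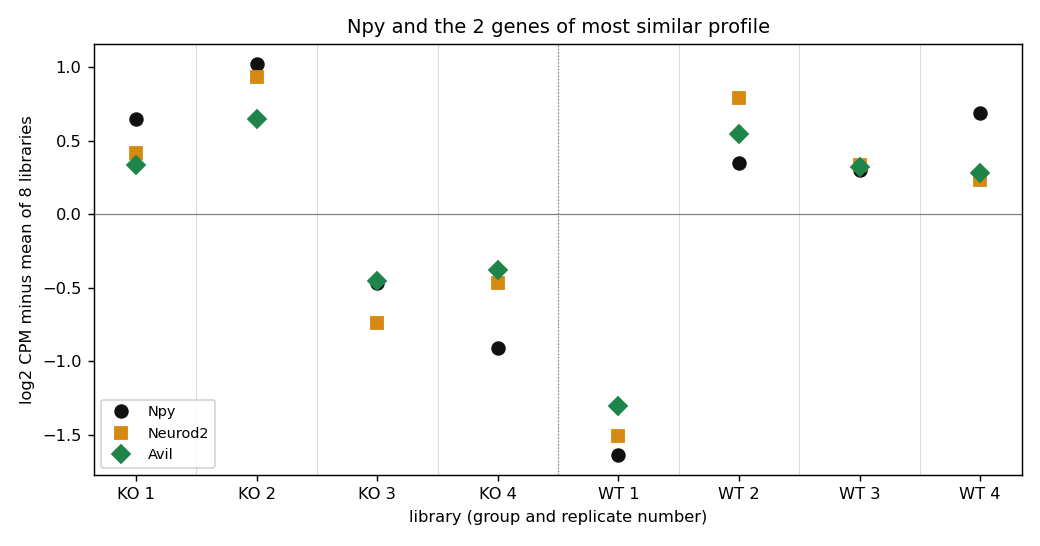
Log2 CPM minus its mean over 8 libraries (y axis) of Npy and the 2 genes of nearest profile, Neurod2 and Avil, in each KO and WT library (x axis). All 3 genes lie above 0 in KO 1, KO 2, WT 2, WT 3 and WT 4 and below 0 in KO 3, KO 4 and WT 1.

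Gal encodes galanin, which is scarce in the intact adult ganglion and induced by nerve injury (ENSMUSG00000024907, chromosome 19, 3409915 to 3414544, minus strand). It had 0.758, 0.720, 0.712 and 0.917 CPM in KO replicates 1 to 4, from 18 to 21 counts each, and 0.816, 1.29, 0.744 and 1.44 CPM in WT replicates 1 to 4, from 19 to 55 counts. WT replicates 2 and 4 lay above every KO library, while WT replicates 1 and 3 lay within the KO range. The log2 fold change was −0.44 (SE 0.25, 95% interval −0.99 to 0.10, adjusted p = 0.853). Gal had the smallest unadjusted p of the 7 tested members, 0.103, and its interval reaches from a KO to WT ratio of 0.504 up to 1.07.

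Calca and Calcb encode the 2 forms of calcitonin gene-related peptide (CGRP), a vasodilator made by peptidergic pain neurons and by motor neurons. Both lie on chromosome 7, Calca at 114631478 to 114636357 on the minus strand (ENSMUSG00000030669) and Calcb at 114718643 to 114723365 on the plus strand (ENSMUSG00000030666). Calca also gives rise to calcitonin by alternative splicing, which counts per gene do not separate. The spliced coding stretch where the genes are most alike is shown because reads inside it could come from either gene. It holds 158 bases with 15 differences, marked by capitals, in GENCODE M21 transcripts (GRCm38).
Calca, chr7:114632446-114634471, minus strand, intron left out: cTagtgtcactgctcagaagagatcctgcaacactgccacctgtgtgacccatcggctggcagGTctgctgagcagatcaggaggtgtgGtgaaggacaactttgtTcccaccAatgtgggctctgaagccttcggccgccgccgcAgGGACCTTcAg
Calcb, chr7:114721709-114722128, plus strand, intron left out: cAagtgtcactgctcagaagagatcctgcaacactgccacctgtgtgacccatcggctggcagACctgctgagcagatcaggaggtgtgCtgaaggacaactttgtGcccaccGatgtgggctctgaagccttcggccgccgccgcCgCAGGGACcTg

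The 2 genes share an identical run of 61 bases. Of all 50-base words in their transcripts, 12 occur in both, 0.715% of those of Calca and 0.952% of those of Calcb, so only a small part of either transcript could mix reads of that length. How such reads were counted is not given in the sources used here.

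Calca had 1.16, 1.32, 1.09 and 1.00 CPM in KO replicates 1 to 4 and 1.28, 1.4, 1.41 and 1.06 CPM in WT replicates 1 to 4. Its groups overlapped, and its spread within groups was no larger than counting error (variance ratio 0.485). The log2 fold change was −0.17 (SE 0.17, 95% interval −0.54 to 0.20, adjusted p = 0.940). Calcb had 0.433, 0.760, 0.487 and 0.262 CPM in KO replicates 1 to 4 and 0.327, 0.590, 0.666 and 0.563 CPM in WT replicates 1 to 4. The highest and the lowest of the 8 values were both KO libraries. For Calcb the log2 fold change was −0.05 (SE 0.34, 95% interval −0.80 to 0.70, adjusted p = 0.996).

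Tac1 encodes the precursor of substance P and neurokinin A, excitatory tachykinins of pain neurons and of spinal interneurons (ENSMUSG00000061762, chromosome 6, 7554879 to 7565834, plus strand). It had 1.12, 1.56, 0.712 and 1.05 CPM in KO replicates 1 to 4 and 0.430, 1.25, 1.06 and 1.27 CPM in WT replicates 1 to 4. WT replicate 1 was again the lowest library, and the other 3 WT values lay inside the KO range. The log2 fold change was 0.23 (SE 0.36, 95% interval −0.56 to 1.02, adjusted p = 0.960). It was −0.10 without WT replicate 1 and −0.02 with limma-voom, so its sign depends on that library and on the tool.

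Vip encodes vasoactive intestinal peptide, a relative of PACAP made by autonomic neurons and induced in injured sensory neurons (ENSMUSG00000019772, chromosome 10, 5639218 to 5647617, plus strand). It had 9, 7, 10 and 6 counts in KO replicates 1 to 4 and 4, 6, 5 and 7 counts in WT replicates 1 to 4. In CPM these were 0.325, 0.280, 0.375 and 0.262 in KO and 0.0594, 0.221, 0.196 and 0.246 in WT. The groups did not overlap, which holds in this direction for 1.42% of the 26003 genes with a count. The counting intervals of the libraries overlapped: the lowest KO value was 0.262 CPM with an exact Poisson 95% interval of 0.0962 to 0.571, and the highest WT value was 0.246 CPM with an interval of 0.0991 to 0.508. These intervals cover counting error only. In the unfiltered edgeR fit the log2 fold change was 0.95 (SE 0.44, unadjusted p = 0.044, adjusted p = 0.888), and without WT replicate 1 it was 0.48 (adjusted p = 0.887). In that fit 4.96% of genes had an unadjusted p under 0.05 and 0.273% passed after adjustment.

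Nts encodes neurotensin, a peptide of spinal interneurons and gut endocrine cells (ENSMUSG00000019890, chromosome 10, 102481756 to 102490486, minus strand). It had 10, 0, 6 and 15 counts in KO replicates 1 to 4 and 42, 10, 8 and 13 counts in WT replicates 1 to 4, where WT replicate 1 is the deepest library. KO spanned the widest range, from 0 to 0.655 CPM, while WT lay between 0.313 and 0.623 CPM. The 0 of KO replicate 2 allows a level of up to 0.120 CPM, taking 3 counts as the limit. The log2 fold change was −0.60 in the unfiltered edgeR fit (SE 0.60, adjusted p = 0.888).

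Nppb encodes B-type natriuretic peptide, a heart hormone that also marks itch neurons of the adult ganglion (ENSMUSG00000029019, chromosome 4, 147985788 to 147987205, plus strand). It was the gene with the fewest counts, 5, 0, 2 and 5 in KO replicates 1 to 4 and 8, 2, 1 and 2 in WT replicates 1 to 4. The totals were 12 counts in KO and 13 in WT, and a difference between groups was not detectable at this depth (unfiltered edgeR log2 fold change 0.45, SE 0.68, 95% interval −0.96 to 1.86, adjusted p = 0.944). The 7 listed markers of heart muscle were unevenly present. Together they summed to 9.61 to 12.1 CPM in KO and 7.83 to 12.3 CPM in WT, more than Nppb in every library. Most of this came from Myh6 (4.33 to 6.26 CPM in KO, 3.33 to 6.38 CPM in WT), Tbx5 (2.62 to 5.2 CPM in KO, 2.18 to 6.4 CPM in WT) and Tnni3 (1.55 to 3.08 CPM in KO, 1.37 to 2.1 CPM in WT). Myl7, Myl2, Nppa and Nkx2-5 had at most 0.262 CPM in KO and at most 0.312 CPM in WT, and none of the 7 was at 0 in all libraries. Whether the libraries held heart tissue was not tested, nor was the part of these markers in the Nppb counts.

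**Figure D4:**
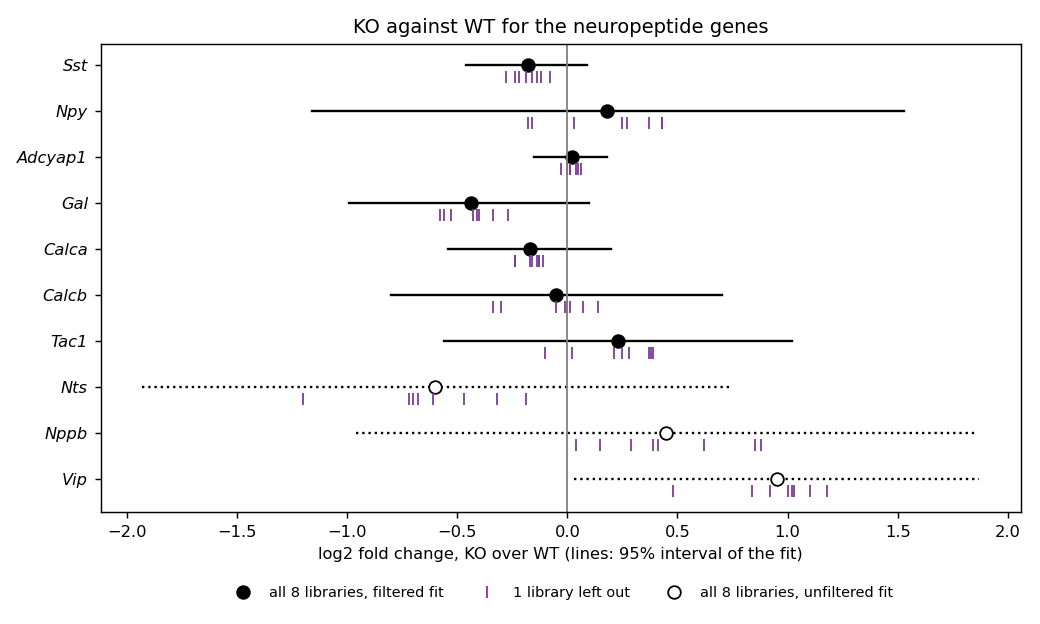
Log2 fold change of KO over WT (x axis) for the 10 neuropeptide genes, with the 95% interval of the edgeR fit (solid for the 7 tested genes, dotted for the 3 that needed the unfiltered fit) and ticks for the 8 fits that each leave out 1 library. The interval is narrowest for Adcyap1 (−0.15 to 0.18) and spans 0 for every gene but Vip (0.03 to 1.87); the ticks of Npy, Tac1, Calcb and Adcyap1 fall on both sides of 0.

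WT replicate 1 shaped several of these values. Set against the mean of WT replicates 2 to 4, it had 0.235 times the Npy, 0.268 times the Vip, 0.361 times the Tac1 and 0.539 times the Calcb level, below all 3 other WT libraries each time. It had 1.07 times the Adcyap1, 1.25 times the Sst, 1.64 times the Nts and 1.94 times the Nppb level, above all 3. Only 0.149% of tested genes had a lower ratio than Npy and 0.361% a lower one than Tac1, while 94.4% had a lower one than Sst. Over all tested genes the median ratio was 0.997, with 34.1% of genes below and 32.0% above the other 3 WT libraries, so lying outside them is common. For Calcb 1.61% of tested genes had a lower ratio, and for Nts 1.28% had a higher one. The Vip and Nppb ratios rest on 4 and 8 counts. WT replicate 1 was not alone in this. It lay outside the range of its group for 8 of the 10 members (66.1% of tested genes). KO replicate 4 did so for 8 (61.6%) and KO replicate 2 for 7 (57.0%), while the remaining libraries did so for 1 to 5. Without KO replicate 4 the log2 fold change was 0.14 for Calcb and −1.2 for Nts (unfiltered fit).

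**Figure D5:**
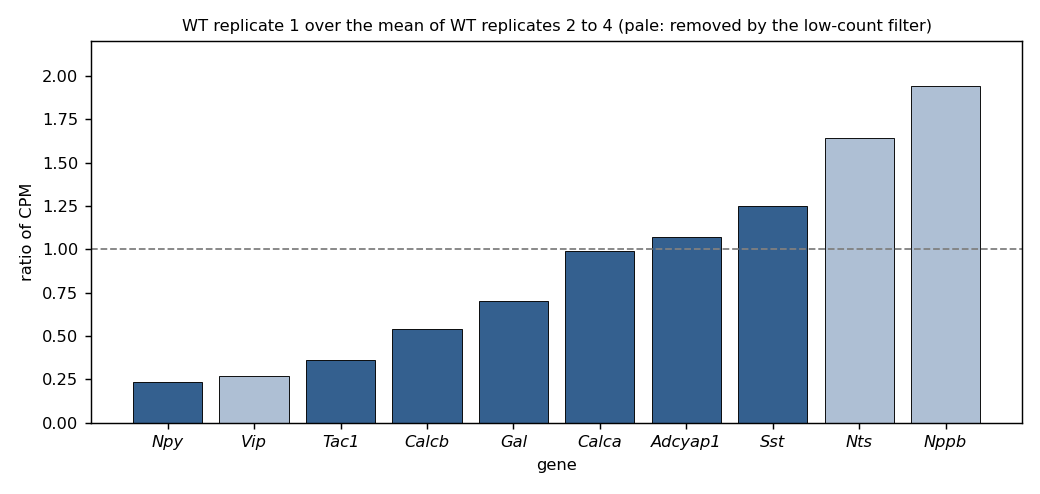
CPM in WT replicate 1 divided by the mean CPM of WT replicates 2 to 4 (y axis) for each neuropeptide gene, ordered from low to high, with genes removed by the low-count filter in pale bars and a dashed line at equal levels. Npy, Vip and Tac1 stand at 0.235 to 0.361 and Nts and Nppb at 1.64 and 1.94.

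Some marker sums differed in WT replicate 1. The 14 sensory neuron markers found summed to 461 to 540 CPM in KO, and to 485 CPM in WT replicate 1 against 635 to 676 CPM in WT replicates 2 to 4, with none at 0 in all libraries. Of these 14, 3 fell and 0 rose in KO (edgeR), Pou4f1 among them (log2 fold change −0.52, adjusted p = 0.0187). The 10 markers of neural tube progenitors summed to 1320 to 1370 CPM in KO, and to 1640 CPM in WT replicate 1 against 1400 to 1450 CPM in WT replicates 2 to 4. Most of that excess was Nes, with 1040 CPM in WT replicate 1 against 820 to 860 CPM in WT replicates 2 to 4. The other progenitor markers went both ways: in WT replicate 1 Sox2 was highest (174 against 139 to 163 CPM) and Fabp7 lowest (270 against 291 to 317 CPM). The 12 sympathetic and autonomic markers summed to 205 to 239 CPM in KO and 209 to 244 CPM in WT, with WT replicate 1 at 212 CPM. The part of these markers in the neuropeptide values was not tested. Without WT replicate 1, 133 genes passed over the whole table against 48 with it, and 0 neuropeptide genes did in either case. Npy then averaged 4.08 ± 2.38 CPM in KO (SD, n = 4) and 4.62 ± 0.699 CPM in WT (SD, n = 3).

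No listed receptor gene passed the edgeR test. Of 30 listed receptor and co-receptor genes 29 were matched and 22 tested, of which 0 rose and 0 fell, with a median log2 fold change of −0.03 against −0.003 over all tested genes. At an unadjusted p under 0.05 there were 2 of 22, Galr2 and Npr2, beside 6.35% of all tested genes. Galr2, a galanin receptor, had 0.505, 0.480, 0.637 and 0.786 CPM in KO replicates 1 to 4 and 0.876, 1.14, 1.25 and 1.48 CPM in WT replicates 1 to 4. Every KO library lay below every WT library, as for 2.45% of all tested genes, but the log2 fold change of −0.95 (SE 0.24) did not pass (adjusted p = 0.283). It passed with limma-voom (adjusted p = 0.0274), and over the 15 alternatives that tested it the adjusted p lay between 0.0274 and 0.713. Npr2 stood in the list with its natriuretic receptor family but is best known as the receptor of C-type natriuretic peptide, the product of Nppc, which is not among the 10 genes. It had 73.7, 84.0, 76.1 and 65.5 CPM in KO replicates 1 to 4 and 83.0, 90.0, 102 and 99.8 CPM in WT replicates 1 to 4 (log2 fold change −0.32, SE 0.08, adjusted p = 0.324). The groups of Npr2 overlapped by 1 library each, and it passed with DESeq2 (adjusted p = 0.0440) and limma-voom (adjusted p = 0.0155), within a range of 0.0155 to 0.761 over 16 alternatives. DESeq2 thus called 1 gene of the 3 lists around the members and limma-voom 2.

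No other listed receptor gene had an unadjusted p under 0.05, although the log2 fold changes reached 0.59 for Ntsr1, a neurotensin receptor (adjusted p = 0.920). Vipr1, a receptor for VIP and PACAP, had 1.2 to 1.5 CPM in KO and 1.05 to 1.2 CPM in WT, without overlap before rounding, as for 1.69% of tested genes (log2 fold change 0.32, adjusted p = 0.813). Sort1, the neurotensin-binding sorting receptor and the most abundant of the list in CPM, had 192 ± 4.55 CPM in KO and 199 ± 12.1 CPM in WT (SD, n = 4 each). Sstr2, a somatostatin receptor, had 14.6 ± 1.52 CPM in KO and 15.9 ± 1.03 CPM in WT (SD, n = 4 each; adjusted p = 0.901).

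The genes that cut and pack neuropeptides spanned a wide range of levels. Cpe, the carboxypeptidase that trims the cut peptides, had 95.8 ± 8.75 CPM per kb (SD over 8 libraries), the only one of the list above the 35.7 CPM per kb of Sst, while Pcsk1 had 0.248 CPM per kb. All 21 listed processing and granule genes were tested and 0 rose or fell in edgeR, DESeq2 or limma-voom, with a median log2 fold change of −0.05. At an unadjusted p under 0.05 there was 1 of 21, beside 6.35% of all tested genes. It was Scg3, a granule protein of the secretogranin family, with 88.9 ± 7.98 CPM in KO and 100 ± 6.12 CPM in WT (SD, n = 4 each), with an adjusted p of 0.721 and a log2 fold change of −0.17. Pcsk1, a convertase that cuts peptide precursors, had 0.743 to 1.5 CPM in KO and 1.5 to 1.76 CPM in WT, without overlap before rounding, as for 2.45% of tested genes (log2 fold change −0.43, adjusted p = 0.796). The sorting and priming genes Cadps and Ptprn2 had log2 fold changes of −0.08 and −0.11, the convertase gene Pcsk6 0.14 and the carboxypeptidase gene Cpd −0.07.

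Most other neuropeptide genes shared the low levels, while Penk averaged above the median of tested genes, 5.72 CPM per kb. Of 40 listed, 39 were matched and 14 had enough counts for the test, where 0 rose and 0 fell and 0 had an unadjusted p under 0.05 (edgeR; 0 calls with DESeq2 and limma-voom). Per length, Sst stood first among all 49 neuropeptide genes measured, followed by the enkephalin gene Penk (7.38 ± 1.39 CPM per kb, SD over 8 libraries), Npy, the CART gene Cartpt (5.31 ± 0.967 CPM per kb) and Adcyap1. The smallest p belonged to Pnoc, the nociceptin precursor, with 4.32 ± 0.992 CPM in KO and 6.08 ± 1.62 CPM in WT (SD, n = 4 each), with an adjusted p of 0.806 and a log2 fold change of −0.48. Next came Spx, Pthlh and Nppc with log2 fold changes of 0.42, −0.51 and −0.43 (adjusted p = 0.826, 0.833 and 0.869). Penk had 12.5 ± 2.31 CPM in KO and 11.6 ± 2.45 CPM in WT, and Cartpt 6.80 ± 0.943 CPM in KO and 6.75 ± 1.63 CPM in WT (SD, n = 4 each).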

How the data were processed

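The authors deposited unnormalized, whole-number read counts per Ensembl gene, 1 file per library. Total RNA was extracted with a spin-column kit, per the labels' protocols. Per the submitters' processing notes, the tools were featureCounts 1.4.6-p1, STAR 2.3.0e, DESeq2 1.8.2, FastQC 0.10.1 and SAMtools 0.1.18, and the build was mm10. The sources used here give no settings, annotation release or strand. The 5 summary rows of each file held 0 counts and were left out. Of 38355 identifiers, 36602 matched GENCODE M21 (GRCm38, the assembly of mm10), and none of the 10 genes overlaps another gene there. The 1753 unmatched held 0.263% of counts. No 2 libraries of a group agreed within sampling noise (chi-square per gene at least 4.63).

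Genes were tested between KO and WT in R 4.3.3 by edgeR 4.0.16 (filterByExpr, TMM factors 0.991 to 1.01, robust quasi-likelihood F test, group alone, Benjamini-Hochberg over 16068 genes). CPM uses TMM-scaled totals, and 1 CPM is 22.9 to 67.4 counts. Standard errors were taken from the F statistic as the size of the log2 change over √F, and intervals are 95%. The variance ratio is Pearson's chi-square of counts within groups divided by 6 degrees of freedom. Genes under the filter were read from an unfiltered fit of 26003 genes. The fit was also run on simulated counts, with changes put only into genes of at least 1 CPM on average. The outcome is not quoted here, and that run does not cover members below this level. Alternatives used DESeq2 1.42.0, limma 3.58.1 (voom with quality weights), other scalings and filters, the replicate number as a block, and leaving out each library; thinning WT replicate 1 was added after seeing the data. The members and lists were chosen with earlier results of these data known. The text names all members and, from each of the 3 lists of receptors, processing genes and other neuropeptide genes, called genes, the 4 smallest p and the 3 highest mean CPM; for the 3 members of highest mean CPM it names the 2 nearest profiles among genes of at least 1 CPM. Promoters came from RefSeq (GRCm38.p6), where 9 of 10 members matched.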

Additional observations from a re-analysis of the deposited data

Results flagged for a closer look

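Among 60 groups of 4 libraries examined (members, Prdm12 and genes named from the surrounding lists), 2 held a library whose gap to its neighbours exceeded Dixon's 95% critical value, and chance flags about 1 in 20 groups. Cpe had 206 CPM in WT replicate 1 against 261 to 270 CPM in WT replicates 2 to 4. Pnoc had 5.80 CPM in KO replicate 2 against 3.72 to 3.93 CPM in KO replicates 1, 3 and 4. No group of the 10 neuropeptide genes held such a library.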

How the results depend on the processing

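The count of 0 neuropeptide genes called held under all 16 alternatives. Over the whole table the main count of 48 genes was 100 with DESeq2, 125 with limma-voom and 16 with the replicate block, and between 15 and 133 when 1 library was left out, highest without WT replicate 1; the cause was not tested. In the lists around the members, DESeq2 called 1 gene and limma-voom 2, against 0. Of 149 alternative values of the members' log2 fold changes 141 kept their sign or rounded to 0, and 8 reversed, with 0 called. Tac1 was −0.02 with limma-voom. Leaving out 1 library gave −0.10 to 0.39 for Tac1, −0.34 to 0.14 for Calcb, −0.18 to 0.43 for Npy, −0.03 to 0.06 for Adcyap1, −0.28 to −0.08 for Sst, −0.58 to −0.27 for Gal and −0.24 to −0.11 for Calca. In the unfiltered fit it gave 0.48 to 1.18 for Vip, 0.04 to 0.88 for Nppb and −1.20 to −0.19 for Nts. With the longest transcript as length, 6 of 10 genes kept their rank. Same-numbered libraries did not consistently deviate together (correlations −0.11, 0.35, −0.25 and −0.0071), and 0 of 4 KO libraries matched their own number best. The labels name no pairing or batch, and these correlations cannot show whether there was one. Depth limits Nppb, Vip and Nts most, at 12 to 73 counts per group.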
